A study of Rattus norvegicus with 6 samples.

Results

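The genes described here encode the ligands, receptors, secreted antagonists and central intracellular components of the Wnt pathway, as measured in rat pancreatic islets, the endocrine cell clusters of the pancreas. They were chosen by symbol: Wnt, Fzd, Sfrp or Dkk followed by a digit, and in addition Wif1, Lrp5, Lrp6, Axin1, Axin2, Ctnnb1, Lef1, Tcf7 and Tcf7l2. Of 46 such genes in the rat gene table, 32 had a probe that could be named through its RefSeq transcript, among 24684 probes of the array. These were 14 ligands, 7 receptors, 7 antagonists and 4 intracellular genes, each with a single probe. Genes of the rule without a named probe were Wnt2, Wnt2b, Wnt3a, Wnt7a, Wnt11, Fzd3, Fzd7, Fzd10, Lrp5, Lrp6, Sfrp1, Wif1, Tcf7 and Tcf7l2, and they are not analysed here.

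Islets isolated with collagenase from adult male rats (3 arrays, 1 rat each) were compared with islets from pools of rats aged 10 days (P10, 3 arrays, 1 pool each) to follow the maturation of islets after birth. No genotype or treatment is named for either group. Strain, adult age, the sex of the P10 rats and the number of rats in a pool are not given in the sources used here. Total RNA was labelled with Cy3 and hybridised to an Agilent array for rat mRNAs and long non-coding RNAs, 1 sample per array.

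Wnt proteins are secreted, lipid-modified signals that bind Frizzled receptors, either together with the co-receptors Lrp5 and Lrp6 or with other partners. With Lrp5 or Lrp6 engaged, a cytoplasmic complex built on Axin no longer marks beta-catenin (Ctnnb1) for destruction, and beta-catenin then acts with transcription factors of the Tcf and Lef family. Secreted frizzled-related proteins (Sfrp) and Wif1 bind the ligands, and Dickkopf proteins (Dkk) bind Lrp5 and Lrp6. In the pancreas the pathway is known from organ growth and exocrine development, and variants near Tcf7l2 are known from type 2 diabetes genetics.

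A level is the log2 signal of a probe relative to the 75th percentile of its array, and a change is adult minus P10 on that log2 scale. Levels of different genes are not comparable, because probes differ in affinity. On each array between 17829 and 18731 probes gave a signal well above background, with 0 saturated. The 75th percentile itself was 9.92 to 9.99 (log2) on the P10 arrays and 10.93 to 11.36 on the adult arrays. An equal raw signal near background thus takes a lower level on the adult arrays. Dkk1, which exceeded background on no array, had means of -9.52 in adults and -8.72 at P10. Adult arrays 2 and 3 differed by little more than the spread of repeated spots, and P10 arrays 1 and 2 by no more than it. Their variance was 1.13 and 0.958 times the spot noise, against 1.32 and 1.86 for the other P10 pairs and 33.6 and 35.5 for the other adult pairs. Each of these pairs was averaged and counted as 1 sample, so that n = 2 per stage. The check of the pairs used probes with 3 spots and a mean level above -4, with any trend in signal removed. Dimmer genes were averaged without such a check. The labels name separate rats and pools, but p-values can only measure the spread between the samples counted. Adult array 1 carried the same scan time stamp as the 3 P10 arrays, and adult arrays 2 and 3 shared another stamp. Arrays with the same stamp are taken here as a slide, since no slide barcode was available. The adult pairs at 33.6 and 35.5 thus lie across slides, whereas all P10 pairs share a slide. In the adult spread, differences between rats and between slides cannot be told apart. A stage is left with 1 sample without adult array 1, without P10 array 3 and on the shared slide alone, and that sample is then assumed to vary like those of the other stage. Values from the shared slide alone are given where the call of a named gene changes there.

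Markers of several cell types moved with the stage on the same arrays, where 23.7% of all named genes tested were higher and 28.8% lower. The 7 measured beta cell markers gave 4 higher and 1 lower (5 and 0 with quantile normalization), and all 7 exceeded background on every array. All 10 measured enterocyte markers were lower in adults, and their summed signal ran from 7.55 to 8.45 times the 75th percentile of the array in adults and from 337 to 352 times at P10. The enterocyte gene Apoa4 was not well above background in adults. Among intestinal crypt markers 2 of 4 were lower, while Lgr5 and Msi1 were too dim to measure on every array, and the summed signal of the 4 was 0.566 to 0.698 in adults and 1.93 to 2.1 at P10. Of 11 acinar markers 9 were lower (5 with quantile normalization, which made 1 higher), with sums of 475 to 689 in adults and 1430 to 1520 at P10. Fibroblast markers gave 3 lower and 1 higher of 6, with sums of 53.6 to 56.3 against 107 to 114. Smooth muscle markers gave 3 higher and 0 lower of 4, markers of Schwann cells and neurons 4 and 1 of 7, and endothelial markers 1 and 0 of 6. Duct markers gave 1 higher and 2 lower of 4, alpha cell markers 3 and 2 of 6, markers of delta and PP cells 2 and 0 of 4, and hepatocyte markers 2 and 3 of 6. Among 3 erythroid markers 1 rose and 1 fell. All 9 leukocyte markers were higher, with sums of 20.6 to 21.8 in adults and 5.26 to 5.61 at P10 over 8 genes measured on every array, and the B cell gene Cd79b and the myeloid gene Itgam were not well above background at P10. Their part in the results below was not tested. In RNA of whole islets, fewer cells of a type and less RNA per cell cannot be told apart.

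**Figure D1:**
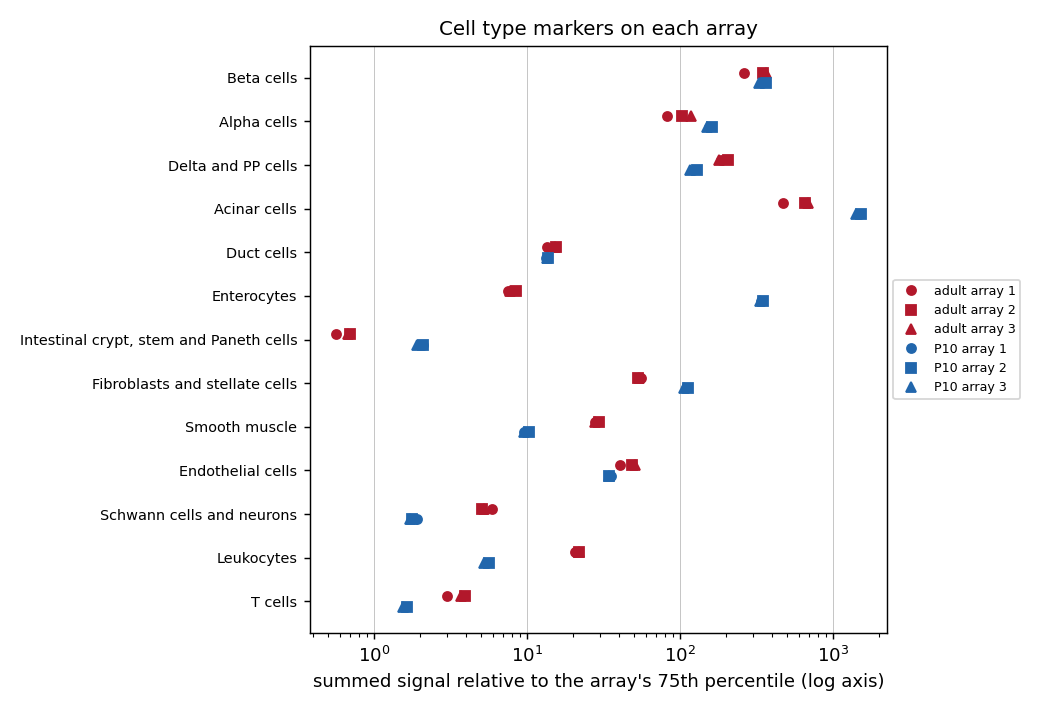
Summed signal of cell type markers on each array (x, relative to the 75th percentile of the array, log axis), for the tested genes of each list that were measured on all 6 arrays, with adult arrays in red and P10 arrays in blue. Enterocyte markers sum to 337 to 352 on the P10 arrays and to 7.55 to 8.45 on the adult arrays, and leukocyte markers to 5.26 to 5.61 and 20.6 to 21.8.

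A gene was tested if its probe exceeded background on every array of 1 stage or both, which held for 30 of the 32 genes. For 25 it did so on all 6 arrays, and for 1, Dkk1, on none. In adults 7 were higher, 13 were lower and 10 did not pass the test (limma, Benjamini-Hochberg adjusted p under 0.05 over all 18362 probes tested). That is 23.3% and 43.3% of those tested, beside 23.7% and 28.8% of the 11404 named genes tested on the array (21.3% and 31% of all probes). In either direction 66.7% passed, beside 52.4% of named genes and 52.3% of all probes. Wnt16 and Dkk4 are among the 13 although dim on every adult array, since they were tested through P10 alone. Signals near background take a lower level on the adult arrays, as given above, and the share of this in the count was not tested. With only genes well above background on all 6 arrays, 7 were higher and 10 lower, beside 24.2% and 28.7% of named genes. Changes ran from -6.68 for Wnt16, which was dim in adults, to 3.49 for Wnt3, with a median of -0.14, beside -0.13 over all named genes (0.04 with quantile normalization). With quantile normalization 10 were higher and 11 lower, beside 30% and 27.2% of named genes (57.2% in either direction), and all 20 called genes kept their direction. With every array as its own sample 11 were higher and 13 lower, beside 32.3% and 38.3% of named genes (70.6% in either direction). Without adult array 1 the counts were 11 and 14, beside 33.7% and 37.3% of named genes, and without P10 array 3 they were 6 and 9, beside 9.33% and 12.2%. A change of at least 2-fold that passed the test was found for 18 of the 30, or 60%, beside 36.6% of named genes and 38.3% of all probes. The arrays of the stages did not overlap for 25 of the 30, or 83.3%, beside 76.5% of named genes and 76.7% of all probes.

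**Figure D2:**
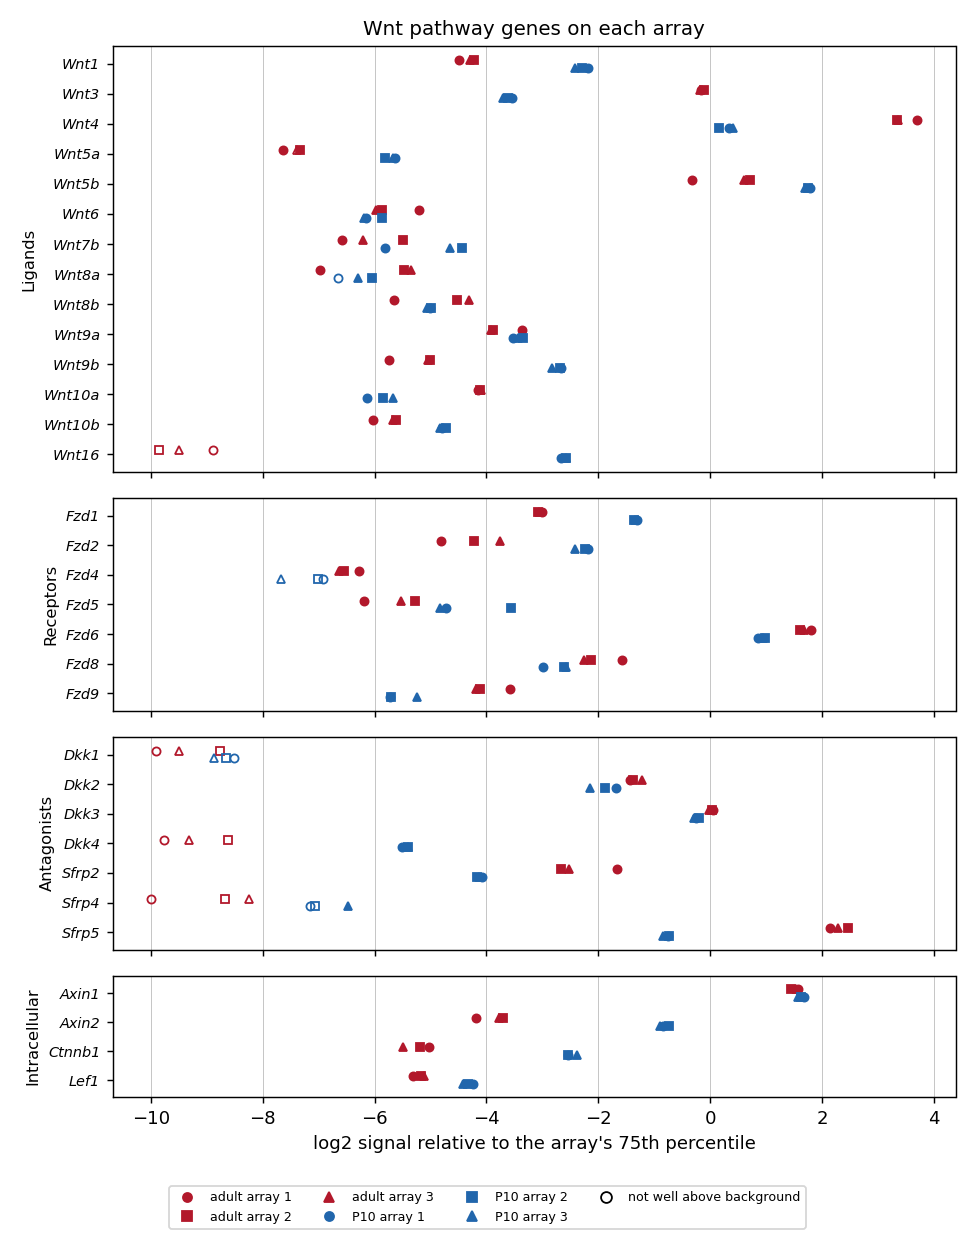
Level of each of the 32 Wnt pathway genes on each array (x, log2 signal relative to the 75th percentile of the array), by role, with adult arrays in red, P10 arrays in blue and open symbols where the probe was not well above background. The 3 adult arrays lie to the right of all P10 arrays for Wnt3, Wnt4 and Sfrp5, and to the left for Wnt16, Dkk4, Axin2 and Ctnnb1.

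The promoters of 4 genes with large changes are printed because Axin2 is a textbook direct target of Tcf and Lef factors, and Wnt3, Wnt4 and Sfrp5 had the steepest rises among the 32 genes. Each window runs from 250 bases before to 50 bases after the transcript start, 5′ to 3′ on the strand of the gene, in RefSeq of the GRCr8 build. Axin2 lies at chr10:94398535-94398834 (plus strand), Wnt3 at chr10:89179974-89180273 (plus strand), Wnt4 at chr5:154797200-154797499 (plus strand) and Sfrp5 at chr1:250960463-250960762 (minus strand). Capitals mark the Tcf and Lef core motif, searched on both strands as CTTTGAA and as CTTTGAT, and likewise as CTTTGTA and as CTTTGTT.
Axin2: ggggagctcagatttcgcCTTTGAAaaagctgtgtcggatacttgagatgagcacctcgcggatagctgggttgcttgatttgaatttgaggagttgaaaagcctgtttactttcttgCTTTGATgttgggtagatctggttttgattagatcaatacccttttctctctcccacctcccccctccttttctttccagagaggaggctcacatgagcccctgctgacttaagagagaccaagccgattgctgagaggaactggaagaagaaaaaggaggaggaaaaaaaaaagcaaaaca
Wnt3: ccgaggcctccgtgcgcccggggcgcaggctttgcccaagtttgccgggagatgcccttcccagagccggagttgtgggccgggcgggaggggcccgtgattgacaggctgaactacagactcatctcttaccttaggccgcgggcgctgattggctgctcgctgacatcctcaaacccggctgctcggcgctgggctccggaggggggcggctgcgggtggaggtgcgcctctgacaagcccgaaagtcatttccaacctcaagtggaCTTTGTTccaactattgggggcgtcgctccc
Wnt4: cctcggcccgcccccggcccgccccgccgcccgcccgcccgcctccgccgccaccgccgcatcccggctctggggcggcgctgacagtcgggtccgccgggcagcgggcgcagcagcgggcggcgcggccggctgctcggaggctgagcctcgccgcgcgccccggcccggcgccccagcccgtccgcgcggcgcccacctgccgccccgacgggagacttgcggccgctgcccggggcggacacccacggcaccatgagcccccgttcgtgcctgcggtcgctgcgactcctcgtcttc
Sfrp5: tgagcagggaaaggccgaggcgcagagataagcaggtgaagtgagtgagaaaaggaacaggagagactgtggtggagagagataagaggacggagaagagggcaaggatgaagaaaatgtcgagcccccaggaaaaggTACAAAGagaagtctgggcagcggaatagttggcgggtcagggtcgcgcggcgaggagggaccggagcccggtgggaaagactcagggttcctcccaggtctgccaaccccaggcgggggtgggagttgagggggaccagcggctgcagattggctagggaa
The Axin2 window holds 2 matches, which begin at -232 and -132 from the start, the Sfrp5 window 1 on the other strand at -112, and the Wnt3 window 1 at 20 bases into the transcript. The Wnt4 window, of which 83.3% are G or C, holds none of these letters. Of the 22 genes with a window in the table, 5 hold a match, or 22.7%, beside 17.1% of the 33469 windows of all genes. By call these were 2 of 6 higher genes, 1 of 8 lower genes, 1 of 7 that did not pass and Dkk1, which was not tested. A match is a string of letters and does not show binding.

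Among the ligands 3 were higher in adults, 7 lower and 4 did not pass the test, beside 23.7% higher and 28.8% lower of named genes. Wnt3, which signals through beta-catenin and is known from the intestinal stem cell niche, stood at -0.17, -0.11 and -0.18 on the adult arrays and at -3.55, -3.61 and -3.71 on the P10 arrays. Both stages were tight and far apart. The rise was 3.49 (SE 0.14), 11.2-fold, from -3.64 ± 0.09 to -0.16 ± 0.02 (SD, n = 2), with a limma adjusted p of 0.00132, and with normexp background correction it was 2.81. Wnt4, known from kidney and gonad development, stood at 3.70, 3.34 and 3.35 in adults and at 0.33, 0.16 and 0.41 at P10. Every adult array was thus above every P10 array, and the rise came to 3.19 (SE 0.19), 9.13-fold, from 0.33 ± 0.12 to 3.52 ± 0.25 (SD, n = 2), with a limma adjusted p of 0.00181. Wnt10a, known from tooth and hair development, stood at -4.15, -4.11 and -4.09 in adults and at -6.14, -5.85 and -5.67 at P10. It rose by 1.71 (SE 0.17, 3.26-fold, limma adjusted p = 0.00445), and with normexp it stood at 0.41 and did not pass (limma adjusted p = 0.223).

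The steepest fall among the ligands was that of Wnt16, known from bone, at -2.66, -2.58 and -2.57 on the P10 arrays. Its probe did not exceed background on the adult arrays, with signals of -8.88, -9.85 and -9.50. A fold against such a stage is given as at least a value, where each dim signal counts as no less than the dimmest measurable probe of that array. Wnt16 was at least 43.8-fold lower in adults on this scale. Its probe was tested through the P10 arrays alone. The limma adjusted p of 0.00143 for the measured change of -6.68 thus sets P10 against background signal. With normexp the change was -2.65 (limma adjusted p = 0.0179), a smaller fold than that bound, so the size of the fall depends on the background correction. Wnt9b, known from kidney development, stood at -5.74, -5.01 and -5.05 in adults and at -2.66, -2.68 and -2.83 at P10. It changed by -2.63 (SE 0.29, 6.20-fold, limma adjusted p = 0.00525), or by -1.68 with normexp (limma adjusted p = 0.0489), with adult array 1 the lowest. Wnt1, the founding member of the family, stood at -4.49, -4.23 and -4.29 in adults and at -2.19, -2.29 and -2.41 at P10. Its change was -2.05 (SE 0.16, 4.14-fold, limma adjusted p = 0.00278), well outside the spread within either stage.

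Wnt5a and Wnt5b, best known for signalling that does not use beta-catenin, were both lower in adults. Wnt5a stood at -7.63, -7.34 and -7.39 in adults, where 2 of 3 arrays were well above background, and at -5.63, -5.82 and -5.67 at P10. The change of -1.80 (SE 0.16, limma adjusted p = 0.00339) shrank to -0.82 with quantile normalization, and with normexp it was -0.95 and did not pass (limma adjusted p = 0.133). Wnt5b stood at -0.32, 0.72 and 0.60 in adults and at 1.79, 1.75 and 1.70 at P10. Adult array 1 was the lowest, and the change was -1.56 (SE 0.37, limma adjusted p = 0.0325). Without P10 array 3 it was -1.60 and did not pass (limma adjusted p = 0.0884), nor did it with normexp, at -1.45 (limma adjusted p = 0.0611).

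Wnt10b, known from bone and fat tissue, stood at -6.02, -5.61 and -5.67 in adults and at -4.80, -4.72 and -4.83 at P10, a change of -1.03 (SE 0.19, limma adjusted p = 0.0163). The groups did not overlap, but with quantile normalization the change was only -0.41, with normexp it was -0.83 (limma adjusted p = 0.145) and without P10 array 3 it was -1.07 (limma adjusted p = 0.123). Wnt7b, known from lung and kidney development, stood at -6.58, -5.49 and -6.21 in adults and at -5.82, -4.43 and -4.65 at P10. Here the stages overlapped, since adult array 2 lay above P10 array 1. The change of -1.33 (SE 0.33) passed with a limma adjusted p of 0.0366. It did not pass with every array as its own sample (-1.13, limma adjusted p = 0.0653), with quantile normalization (-0.64, limma adjusted p = 0.101), with the authors' normalized values (-0.64, limma adjusted p = 0.0967) or with normexp (-0.96, limma adjusted p = 0.146). Nor did it without P10 array 2 (-0.98), P10 array 3 (-1.09) or adult array 3 (-1.15), where the limma adjusted p ran from 0.104 to 0.172.

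The remaining ligands did not pass the test. Wnt6 changed by 0.54 (SE 0.29, limma adjusted p = 0.191), Wnt8a by 0.13 (SE 0.57), Wnt8b by 0.00 (SE 0.46) and Wnt9a by -0.20 (SE 0.23). Their adult arrays lay far apart, Wnt8a at -6.97 on array 1 against -5.48 and -5.35, and Wnt8b at -5.66 against -4.53 and -4.31. On the shared slide, which holds adult array 1 alone of the adults, Wnt8a and Wnt8b stood at -0.65 and -0.62 and passed, with limma adjusted p-values of 0.00776 and 0.00875. Without that array they stood at 0.90 and 0.62 (limma adjusted p = 0.00369 and 0.00953). In both settings the adult stage is 1 sample whose spread is taken from P10, and since the signs oppose, no direction is given for these genes. Wnt6 stood at 0.89 on the shared slide and at 1.31 with quantile normalization, and passed in both (limma adjusted p = 0.00644 and 0.0441). Wnt9a stood at -0.46 without adult array 1 (limma adjusted p = 0.0168), again with 1 adult sample, and at 0.07 on the shared slide.

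Several Wnt genes lie side by side in the genome, and 3 such pairs of neighbouring protein-coding genes were measured. On chromosome 10, Wnt9b was lower in adults, at -2.63, and its neighbour Wnt3 was higher, at 3.49. On chromosome 7, Wnt10b and Wnt1 were both lower, at -1.03 and -2.05. On chromosome 9, Wnt10a was higher at 1.71 and Wnt6 stood at 0.54. Neighbours are taken from the GRCr8 gene table, and the difference within a pair was not tested.

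**Figure D3:**
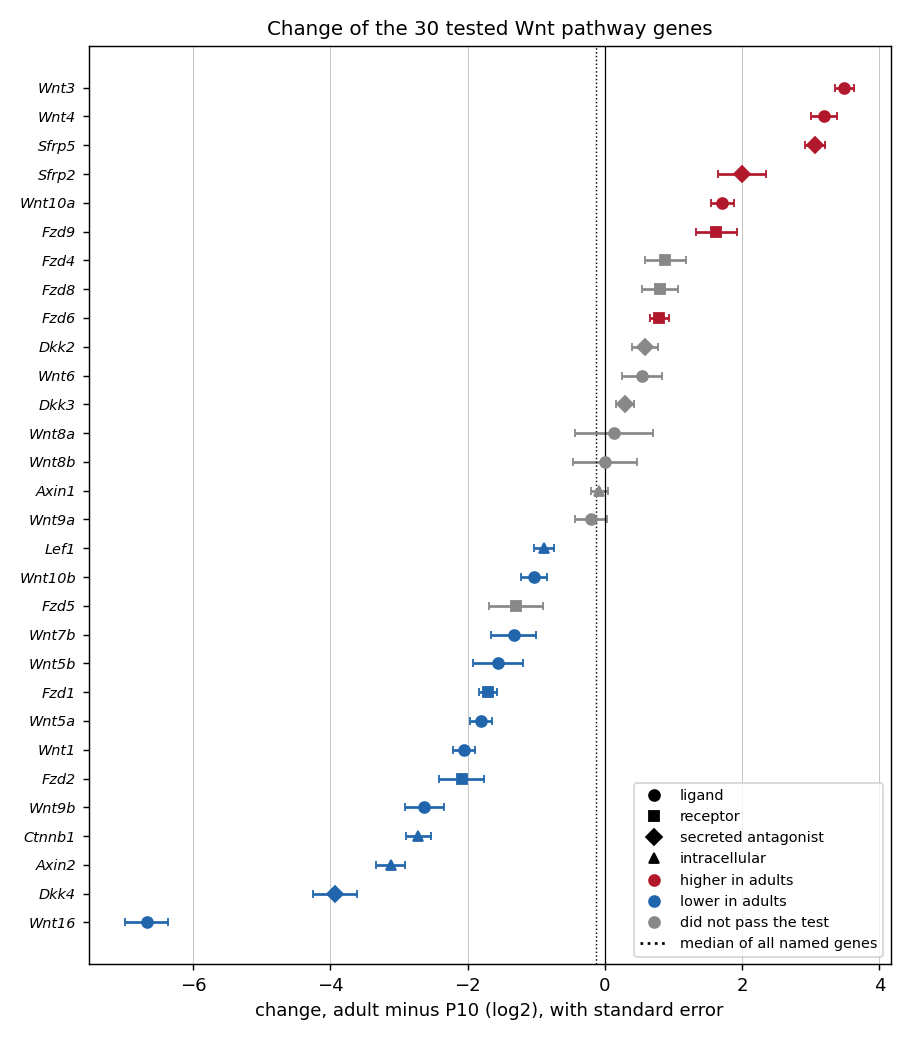
Change of the 30 tested Wnt pathway genes (x, adult minus P10, log2, with its standard error as the bar), ordered by size, with shape for the role, red for higher in adults, blue for lower, grey for genes that did not pass the test and a dotted line at the median of all named genes, -0.13. Wnt3, Wnt4 and Sfrp5 stand above 3 and Wnt16, Dkk4 and Axin2 below -3.

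Receptors gave 2 higher, 2 lower and 3 that did not pass, beside 23.7% higher and 28.8% lower of named genes. Fzd1 and Fzd2, close relatives within the Frizzled family, were lower in adults. Fzd1 stood at -3.01, -3.07 and -3.06 in adults and at -1.31, -1.36 and -1.34 at P10, a change of -1.70 (SE 0.13, 3.26-fold, limma adjusted p = 0.00253). The arrays of a stage nearly coincided here. Fzd2 stood at -4.81, -4.22 and -3.76 in adults, a wider spread, and at -2.19, -2.24 and -2.41 at P10. It changed by -2.09 (SE 0.33, 4.26-fold, limma adjusted p = 0.0116).

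Fzd9 and Fzd6 were higher in adults. Fzd9 stood at -3.57, -4.11 and -4.18 in adults and at -5.72, -5.71 and -5.24 at P10, a rise of 1.62 (SE 0.30, 3.07-fold, limma adjusted p = 0.0167). With normexp the rise was 0.42 and did not pass (limma adjusted p = 0.134). Fzd6, known from planar cell polarity, stood at 1.81, 1.61 and 1.68 in adults and at 0.85, 0.98 and 0.95 at P10. It rose by 0.79 (SE 0.14, 1.73-fold, limma adjusted p = 0.0155), and without P10 array 3 the value was 0.81 with a limma adjusted p of 0.192. The difference was small but no adult array reached down to a P10 array.

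Fzd4, a receptor of Norrin as well as of Wnt proteins, was well above background on the adult arrays, at -6.28, -6.54 and -6.64, and on no P10 array. Its measured change of 0.88 (SE 0.30, limma adjusted p = 0.076) did not pass, and by the bound it was at least 1.59-fold higher. With quantile normalization it stood at 1.98 (limma adjusted p = 0.0137), with median scaling at 1.18 (limma adjusted p = 0.0429) and with every array as its own sample at 0.71 (limma adjusted p = 0.0311). With normexp the sign turned, at -0.52 (limma adjusted p = 0.283). Fzd8 stood at 0.80 (SE 0.26, limma adjusted p = 0.0682) and passed at 1.11 on the shared slide (limma adjusted p = 0.00499), at 0.74 with every array as its own sample and at 0.50 without adult array 1. Fzd5 stood at -6.18, -5.27 and -5.52 in adults and at -4.73, -3.56 and -4.83 at P10, with P10 array 2 far above the others. Its change of -1.30 (SE 0.39) had a limma adjusted p of 0.057. It passed at -1.69 on the shared slide (limma adjusted p = 0.0164), at -1.28 with every array as its own sample and at -1.36 without adult array 2, and it also passed with median scaling (limma adjusted p = 0.0483).

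Of the secreted antagonists 2 were higher in adults, 1 lower, 2 did not pass and 2 were not tested, beside 23.7% higher and 28.8% lower of named genes. Sfrp5, which binds Wnt ligands and is known from fat tissue, stood at 2.15, 2.46 and 2.29 in adults and at -0.75, -0.74 and -0.84 at P10. Adult and P10 arrays were separated by far more than their spread, at 2.26 ± 0.16 against -0.79 ± 0.06 (SD, n = 2), and the rise was 3.06 (SE 0.15, 8.31-fold, limma adjusted p = 0.0015). Sfrp2, also produced by fibroblasts, stood at -1.67, -2.67 and -2.52 in adults and at -4.07, -4.16 and -4.14 at P10. It rose by 1.99 (SE 0.35, 3.99-fold, limma adjusted p = 0.0155), with adult array 1 the highest, and by 1.3 with normexp (limma adjusted p = 0.0414). Of 6 markers of fibroblasts and stellate cells on the same arrays 3 were lower and 1, Dcn, was higher at 0.90. The other 2, Des at 0.65 and Thy1 at 0.26, did not pass. With quantile normalization Thy1 passed at 0.70 (limma adjusted p = 0.012), and 2 markers were higher and 3 lower. On the shared slide Des stood at 0.43. The link of these markers to Sfrp2 was not tested.

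Dkk4, an inhibitor that binds the co-receptors Lrp5 and Lrp6, stood at -5.50, -5.41 and -5.40 at P10 and did not exceed background on the adult arrays. It was at least 6.17-fold lower in adults by the bound. The limma adjusted p of 0.00283 for the measured change of -3.93 sets P10 against background signal. With normexp the change of -1.22, a smaller fold than that bound, did not pass (limma adjusted p = 0.105). Dkk2 changed by 0.59 (SE 0.19, limma adjusted p = 0.0627) and passed with quantile normalization at 0.64 (limma adjusted p = 0.0316), with median scaling at 0.89, with every array as its own sample at 0.56, without P10 array 1 at 0.64 and without adult array 1 at 0.66. Dkk3, a divergent member of the family, changed by 0.29 (SE 0.13, limma adjusted p = 0.133). It passed at 0.27 with every array as its own sample (limma adjusted p = 0.0184). On the shared slide it stood at 0.31, and the slide as a block gives the same value by design. Dkk1 was too dim to measure on every array. Sfrp4 exceeded background on 1 of the P10 arrays, at -6.47, and on no adult array.

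Among the intracellular genes 3 of 4 were lower in adults and none was higher, beside 28.8% lower and 23.7% higher of named genes. Axin2, the scaffold protein that the pathway induces as its own brake and whose promoter is printed above, stood at -4.18, -3.70 and -3.78 in adults and at -0.84, -0.73 and -0.89 at P10. The levels moved from -0.84 ± 0.07 to -3.96 ± 0.31 (SD, n = 2), a change of -3.12 (SE 0.21, 8.68-fold, limma adjusted p = 0.00204). Over all 17 alternatives the change ran from -3.34 to -2.48, and its limma adjusted p stayed at or below 0.0146. Axin1, the related scaffold that is not induced in this way, stood at 1.57, 1.45 and 1.54 in adults and at 1.68, 1.63 and 1.57 at P10. Its change was -0.08 (SE 0.13, limma adjusted p = 0.629).

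Ctnnb1, which encodes beta-catenin, stood at -5.03, -5.18 and -5.49 in adults and at -2.54, -2.55 and -2.38 at P10. All arrays were well above background, with means of -5.18 ± 0.22 and -2.46 ± 0.12 (SD, n = 2), and the change was -2.72 (SE 0.18, 6.60-fold, limma adjusted p = 0.00202), or -2.36 with quantile normalization and -1.92 with normexp (limma adjusted p = 0.0166). This value rests on 1 probe. Lef1, a partner of beta-catenin that is also expressed in T cells, stood at -5.32, -5.17 and -5.12 in adults and at -4.24, -4.33 and -4.41 at P10. Its change of -0.89 (SE 0.15, 1.85-fold, limma adjusted p = 0.0135) was -0.39 with quantile normalization (limma adjusted p = 0.0803), -0.40 with the authors' normalized values (limma adjusted p = 0.0766), -0.74 with normexp (limma adjusted p = 0.126) and -0.95 without P10 array 3 (limma adjusted p = 0.143), and passed in none of these. T cell markers were higher in adults in 5 of 8 cases and lower in 0 on the same arrays. Their link to Lef1 was not tested.

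**Figure D4:**
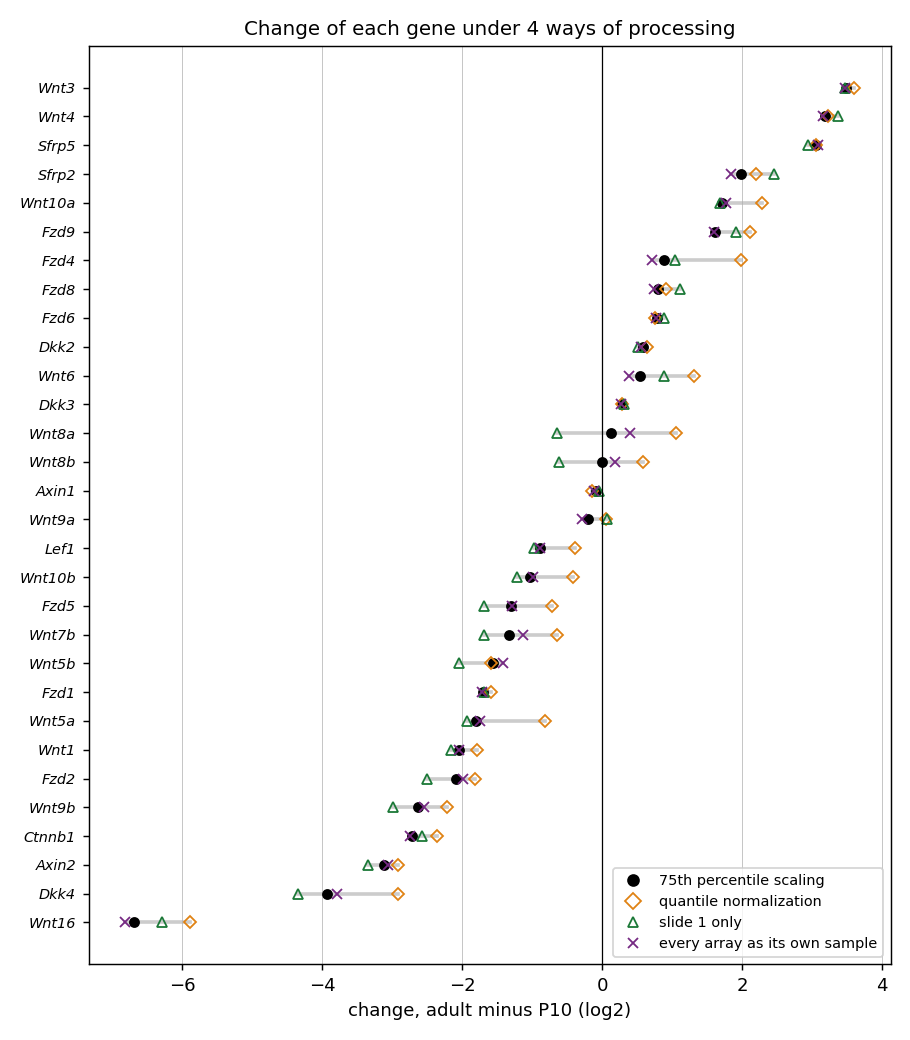
Change of each tested gene (x, adult minus P10, log2) under 4 ways of processing, with the grey line spanning the values. Wnt8a, Wnt8b and Wnt9a cross 0, while all 20 genes that passed the test by the 75th percentile scaling keep their direction in the other 3.

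On the shared slide alone, where adult array 1 is the only adult sample and is assumed to vary like the P10 samples, all 20 called genes passed in the same direction. There 10 genes were higher and 16 lower, beside 32.3% and 43.4% of named genes. With the slide as a block the counts were also 10 and 16, beside 32.4% and 44.4%. The other slide carried adults alone, so no change can be computed within it.

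Other genes of the pathway were taken from a list of 98, of which 70 had a probe and 63 could be tested. Of these 15 were higher in adults and 18 lower, beside 23.7% and 28.8% of named genes, with a median change of -0.13, equal to that of all named genes. Without P10 array 3, when 1 P10 sample is left, the counts were 6 and 8, beside 9.33% and 12.2% of named genes, and with the slide as a block 21 and 29, beside 32.4% and 44.4%.

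Genes that govern secretion and the surface moved in both directions. Frzb, a secreted frizzled-related protein, stood at 2.04, 1.95 and 2.16 in adults and at -2.08, -1.88 and -1.82 at P10, a rise of 3.95 (SE 0.14, 15.4-fold, limma adjusted p = 0.00132). Sostdc1, a secreted regulator of Wnt and BMP signals, stood at -0.49, -0.49 and -0.46 in adults and at 2.84, 2.83 and 2.79 at P10, a change of -3.29 (SE 0.13, 9.79-fold, limma adjusted p = 0.00132). Both lay far outside the spread of their stage. Sost, of the same family, changed by -1.14 and had a limma adjusted p of 0.0428, or 0.138 with quantile normalization, where it was -0.33. Wls, the carrier that brings Wnt proteins to the cell surface, rose by 1.51 (SE 0.20, limma adjusted p = 0.00764), and Notum, the enzyme that strips their lipid, stood at -0.98 (limma adjusted p = 0.0623). Notum passed at -0.95 with quantile normalization (limma adjusted p = 0.0404) and at -1.34 on the shared slide (limma adjusted p = 0.00541). The R-spondin genes Rspo3 and Rspo1, whose products amplify Wnt signals, were lower at -2.01 and -1.08, and their receptor gene Lgr4 was higher at 0.93. Of the other receptors Ror1, Ror2 and Ryk none passed the test, and Musk was too dim to measure on every array.

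In the cytoplasmic relay and the destruction complex 3 of 17 were higher and 6 lower, beside 23.7% and 28.8% of named genes. The Dishevelled genes Dvl3 and Dvl1 changed by -2.63 (SE 0.31, limma adjusted p = 0.00631) and -1.36 (SE 0.22, limma adjusted p = 0.0123). The kinase gene Gsk3b changed by -1.30, while Gsk3a stood at -0.24 (limma adjusted p = 0.191). Apc, the tumour suppressor of the complex, changed by -1.14 (limma adjusted p = 0.0083). Higher were Btrc, the ligase subunit that takes up marked beta-catenin, at 1.08, Dact2 at 1.05 and the kinase gene Csnk1a1 at 1.04. Planar cell polarity genes gave 4 higher and 0 lower of 8, beside 23.7% of named genes higher, among them Celsr3 at 1.67 and Fuz at 1.33 and Invs at 0.92.

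Nuclear partners gave 1 higher and 4 lower of 12, beside 23.7% and 28.8% of named genes. Bcl9l, a co-activator of beta-catenin, stood at -2.22, -2.38 and -2.27 in adults and at 0.42, 0.48 and 0.51 at P10, a change of -2.75 (SE 0.13, 6.75-fold, limma adjusted p = 0.00146). The co-repressor genes Ctbp2 and Tle2 were lower too, at -1.83 and -0.91, and Cby1, which binds beta-catenin, was higher at 0.94. Tcf7l1, the measured member of the Tcf genes, stood at -0.14 (SE 0.27, limma adjusted p = 0.696), and at -0.47 on the shared slide (limma adjusted p = 0.0179).

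Textbook target genes, which respond to many other signals as well, were split with 4 higher and 4 lower of 12. Of named genes 23.7% were higher and 28.8% lower. Mmp7, a matrix protease that exceeded background on 2 of 3 P10 arrays, rose by 5.77 (SE 0.20, limma adjusted p = 0.00132), the adhesion receptor gene Cd44 by 1.68 and Sp5, a transcription factor, by 1.63. Cd44 is also made by leukocytes, whose markers were higher on the same arrays, and a link between them was not tested. Myc changed by -2.77 (SE 0.18, limma adjusted p = 0.00197) and the cyclin gene Ccnd2 by -2.40, whereas Ccnd1 rose by 1.01 (SE 0.22, limma adjusted p = 0.024). Ephb2, known from intestinal crypts, did not exceed background in adults and was tested through P10 alone. Its fall was at least 7-fold by the bound (limma adjusted p = 0.00326 for the measured change of -2.96). With quantile normalization the change was -2, a smaller fold than that bound. The crypt genes Lgr5 and Tnfrsf19 were dim on all arrays of both stages, and Ascl2 stood at -0.35 (limma adjusted p = 0.105).

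**Figure D5:**
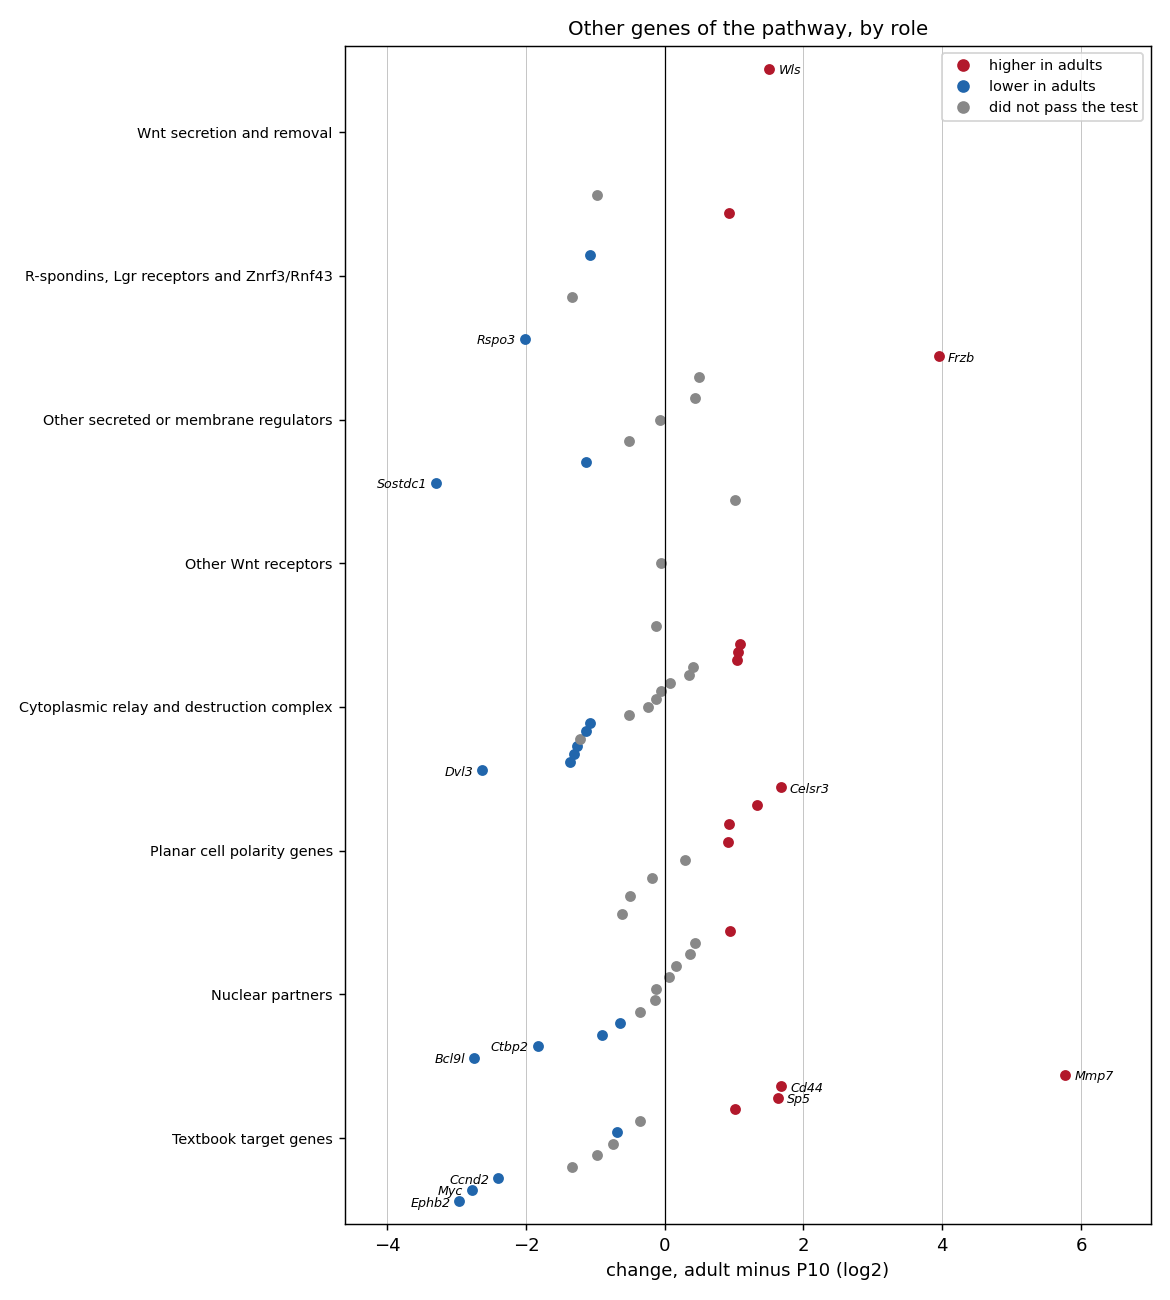
Change of the other tested genes of the pathway (x, adult minus P10, log2), by role, with red for higher in adults, blue for lower and grey for genes that did not pass the test. Notum and Rnf43 are shown in both roles they hold. Frzb stands at 3.95 and Sostdc1 at -3.29, and the textbook targets run from -2.96 for Ephb2 to 5.77 for Mmp7.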

How the data were processed

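The authors deposited 1 scanner file per array, holding the intensity of each spot in 1 channel. Per the submitters' processing notes the software was Agilent Feature Extraction, version 11.0.1.1. A further 2 tables deposited by the authors hold log2 values on a normalized scale, whose method is not given in the sources used here. Per the file headers, processed intensity is background-subtracted and detrended, not scaled between arrays. Here, control spots and outlier spots were dropped, and each probe was given the mean log2 value of its other spots. The 75th percentile of the array was then subtracted. A probe was well above background on an array if at least 0.5 of its spots were. Pairs of arrays whose variance was under 1.3 times the spot noise were averaged, a limit set with the values known.

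Symbols came from RefSeq accessions matched to the GRCr8 gene table, which named 14294 of 24684 probes. The array was annotated on an older build, so no gene coordinates are given. Among several probes of a gene the brightest was used. The contrast was fitted by limma (version 3.58.1, R 4.3.3; lmFit, then eBayes), with n = 2 per stage, and the code was tested on simulated data. The normexp alternative used median spot signals, which replaced the mean signals planned. Every gene of the rule is accounted for. Of the other pathway genes, up to 3 per role and direction with the largest changes were named, with those not well above background on any array. Apc, Gsk3a, Notum, Ascl2, Tcf7l1, Ccnd1, Dcn, Des, Thy1 and the other receptor genes were named after their values were seen. The members and lists were chosen with earlier results of these data known.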

Additional observations from a re-analysis of the deposited data

How the results depend on the processing

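With 2 samples counted per stage, the spread rests on few arrays, and probes near background carry the least certain changes. All 20 called genes kept their direction in every alternative that could test them, and 12 passed with normexp, 18 with quantile normalization, 15 of 17 with the authors' normalized values and all 20 on the shared slide. Counts of called Wnt pathway genes moved to 11 higher with every array as its own sample, to 7 lower with normexp and to 8 lower with the authors' normalized values. Of all named genes 32.3% were higher in the first of these, and 15.7% and 26.9% were lower in the others, against 28.8% by the 75th percentile scaling. Leaving out 1 array gave 6 to 11 higher and 9 to 14 lower, 11 being without adult array 1 and 9 without P10 array 3. Of the other pathway genes, 11 were lower with normexp and 29 with the slide as a block or the shared slide alone, and leaving out 1 array gave 6 to 22 higher and 8 to 24 lower. Over all probes, 3909 were higher and 5698 lower, and with median scaling 5088 and 4640. With normexp the counts were 2126 and 2705, with no filter on dim probes 8599 were lower, with the slide as a block 8932 and on the shared slide 8906, and leaving out 1 array gave 1577 to 5872 higher and 2591 to 7543 lower. The low ends came without P10 array 3 and the high ends without adult array 1.

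Changes that turned their sign were all among genes that did not pass the test by the 75th percentile scaling. Axin1 stood at 0.22 with median scaling, Wnt6 at -0.29, Wnt8a at -0.55 and Fzd4 at -0.52 with normexp. Wnt8a stood at -0.65 with the slide as a block and on the shared slide and at -0.03 without P10 array 1. It kept its sign at 0.90 without adult array 1. Wnt8b, whose change by the 75th percentile scaling is negative before rounding, stood at 0.19 with every array as its own sample, with or without the replicate block. It stood at 0.58 with quantile normalization and with the authors' normalized values and at 0.30 with median scaling. Without adult array 1 it was 0.62, without adult array 2 it was 0.05 and without P10 array 2 it was 0. Wnt8b kept its sign at -0.06 without adult array 3. Wnt9a stood at 0.06 with quantile normalization and the authors' values, at 0.10 with median scaling and at 0.07 with the slide as a block and on the shared slide. The cause of these moves was not tested.

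The replicate numbers do not pair rats and pools, and deviations of same-numbered arrays correlated at -0.32, 0.09 and -0.36. With every array as its own sample and the replicate block, 8 genes were higher and 14 lower, against 11 and 13 without the block. Of named genes 28.5% were higher and 34.3% lower with the block, against 32.3% and 38.3% without it. Over all probes the replicate block gave 4713 higher and 6786 lower, and for the other pathway genes 19 and 23.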
